A study of Mus musculus with 50 samples.

Results

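The 7 genes below, grouped as macrophage surface and lysosomal markers, were followed over 50 mouse airway arrays. They comprise the surface receptor genes Clec7a and Itgax, the adaptor Tyrobp, the lysosomal and endosomal protein genes Cd68, Gpnmb and Rnf128, and secreted Cd5l. They are all the probes that the platform annotations assign to these 7 symbols, out of 13409 named genes on the larger platform and 13509 on the smaller one. The genes were chosen by earlier results of these data, that is by how the same ratios differed between groups, so their differences below are descriptions and the counts of passing genes support nothing. All values are log2 ratios of a sample to a reference after each array was centred on its own median, so 0 is the level of the median spot of that array.

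The arrays fell into 10 groups of 5, 5 groups from RNA of tracheal perfusate and 5 from RNA of whole lung. Of the groups of a tissue 3 were IL-13 groups of different genotype: Stat6+/-, Stat6-/-, and Stat6-/- with the mark Epi+. The other groups were marked OVA (ovalbumin, a model allergen) and PBS (saline). Perfusate RNA went through 1 round of amplification, which the labels of 3 perfusate arrays do not state, and whole lung RNA was not amplified. The labels give no strain, age or sex, no genotype for the OVA and PBS animals, no promoter for IL-13 and no definition of Epi+. In published lines of that name a transgene restores Stat6 to the airway epithelium. No group is labelled with one of these genotypes without IL-13, so the part of IL-13 in a genotype difference cannot be told apart. The labels do not say that arrays of a group came from separate animals, so the errors and tests measure spread between arrays that may be technical in part. By its title the series asks which genes respond when IL-13 acts directly on the airway epithelium.

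Arrays held 15693 to 18655 spots with a value, and their number limits the precision. Whole lung OVA and PBS arrays are of the smaller platform and were set against another reference pool than the whole lung IL-13 arrays, so levels are compared only within a set of arrays and never between genes. The direction of the ratio is not stated. Sample over reference is the likely direction, since Il13 read 2.76 ± 0.55 (SD, n = 5) in perfusate of IL-13 Stat6-/- arrays against 0.04 ± 0.34 in PBS perfusate. The Stat6 probe read -0.86 ± 0.44 in whole lung of Stat6+/- arrays and -0.67 ± 0.20 in Stat6-/- arrays. The files do not say whether it lies in the deleted part, so it checks no label. A Y-linked transcript, Eif2s3y, read below -1.5 on 3 perfusate and 2 whole lung arrays of the IL-13 Stat6-/- groups and on OVA whole lung replicates 2 and 5. PBS whole lung replicate 5, at -1.41, came near that threshold and was not counted as low.

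Macrophages of the lung take up particles, surfactant and dead cells and break them down in lysosomes. Dectin-1, the product of Clec7a, binds fungal beta-glucan and signals through the kinase Syk, and Tyrobp (DAP12) passes signals of many myeloid receptors to the same kinase through its ITAM motif. Itgax (CD11c) is an integrin alpha chain that pairs with Itgb2 and marks alveolar macrophages and dendritic cells. Cd68 is a heavily glycosylated protein of late endosomes and lysosomes, Gpnmb a glycoprotein of lysosomes and melanosomes, and Rnf128 (GRAIL) a ubiquitin ligase of endosomes known from T cells. Cd5l (AIM) is a scavenger receptor family protein released by tissue macrophages. IL-13 signals through Stat6 and is known to drive alternative activation of macrophages.

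The sequences before the start sites are shown for the 4 genes with the largest whole lung differences between Stat6+/- and Stat6-/- arrays, because 6 of the 7 genes moved together there. They are the 250 bases before the most upstream start in RefSeq, in which 6 of the 7 symbols were found (Tyrobp was not), on build GRCm38.p6. Gpnmb lies at chr6:49036268-49036517 on the plus strand, Clec7a at chr6:129472786-129473035 on the minus strand, Itgax at chr7:128129300-128129549 on the plus strand and Cd68 at chr11:69666171-69666420 on the minus strand. Capitals mark matches to 4 motifs that were searched on both strands.
Gpnmb: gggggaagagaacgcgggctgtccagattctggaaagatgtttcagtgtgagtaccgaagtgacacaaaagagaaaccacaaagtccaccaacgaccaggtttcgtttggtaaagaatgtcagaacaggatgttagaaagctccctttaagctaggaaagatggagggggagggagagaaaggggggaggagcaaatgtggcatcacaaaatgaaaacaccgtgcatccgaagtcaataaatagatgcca
Clec7a: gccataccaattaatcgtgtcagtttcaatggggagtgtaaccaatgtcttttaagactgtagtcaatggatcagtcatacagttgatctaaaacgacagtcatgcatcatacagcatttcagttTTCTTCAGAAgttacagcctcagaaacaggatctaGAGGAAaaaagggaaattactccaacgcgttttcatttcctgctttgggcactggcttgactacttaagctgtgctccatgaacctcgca
Itgax: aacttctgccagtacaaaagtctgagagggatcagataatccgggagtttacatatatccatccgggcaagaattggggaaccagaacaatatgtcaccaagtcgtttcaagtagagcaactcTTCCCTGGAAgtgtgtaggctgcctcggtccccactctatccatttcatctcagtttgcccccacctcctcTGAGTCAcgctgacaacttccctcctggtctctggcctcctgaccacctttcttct
Cd68: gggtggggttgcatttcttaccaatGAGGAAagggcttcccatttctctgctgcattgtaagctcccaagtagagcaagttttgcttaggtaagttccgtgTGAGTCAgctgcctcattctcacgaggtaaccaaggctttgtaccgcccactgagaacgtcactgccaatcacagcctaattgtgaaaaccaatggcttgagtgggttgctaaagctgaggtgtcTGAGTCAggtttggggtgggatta
TTC and GAA with any 4 bases between them, the spacing that STAT6 prefers, were found before Clec7a (TTCTTCAGAA), Itgax (TTCCCTGGAA) and Cd5l, and in 5.89% of 32536 windows of the same length. TGANTCA, the core bound by AP-1 and shared by MAF-type sites, was found as TGAGTCA before Cd68 at 2 places and before Itgax at 1, and in 6.73% of all windows. GAGGAA, the core of PU.1 sites, was found before Clec7a, Cd68, Cd5l and Rnf128, and in 23.4% of all windows. TCANGTG, bound by MITF and TFE factors, was found before none of the 6 genes and in 12.2% of all windows. No match of one motif overlapped another, and a match describes the letters only.

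In whole lung with IL-13, 6 of the 7 genes were higher in Stat6+/- than in Stat6-/- arrays, with no overlap between the groups. Gpnmb differed by 4.65 ± 0.42 (log2 difference ± SE, n = 5 and 5), which is 25.1-fold, and Tyrobp, the smallest of the 6, by 1.74 ± 0.24, which is 3.34-fold. Cd5l was the exception. These 6 passed at an adjusted p under 0.05 (limma, Benjamini-Hochberg over all 16096 probes tested), as did 4.84% of all probes (3.23% higher and 1.61% lower). Of all probes, 3.35% were higher in Stat6+/- arrays without overlap. The median difference over the 7 genes was 3.12, and over all probes -0.04. Whole lung is a mixture of cells, in which fewer cells of a type and less RNA per cell cannot be told apart.

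**Figure D1:**
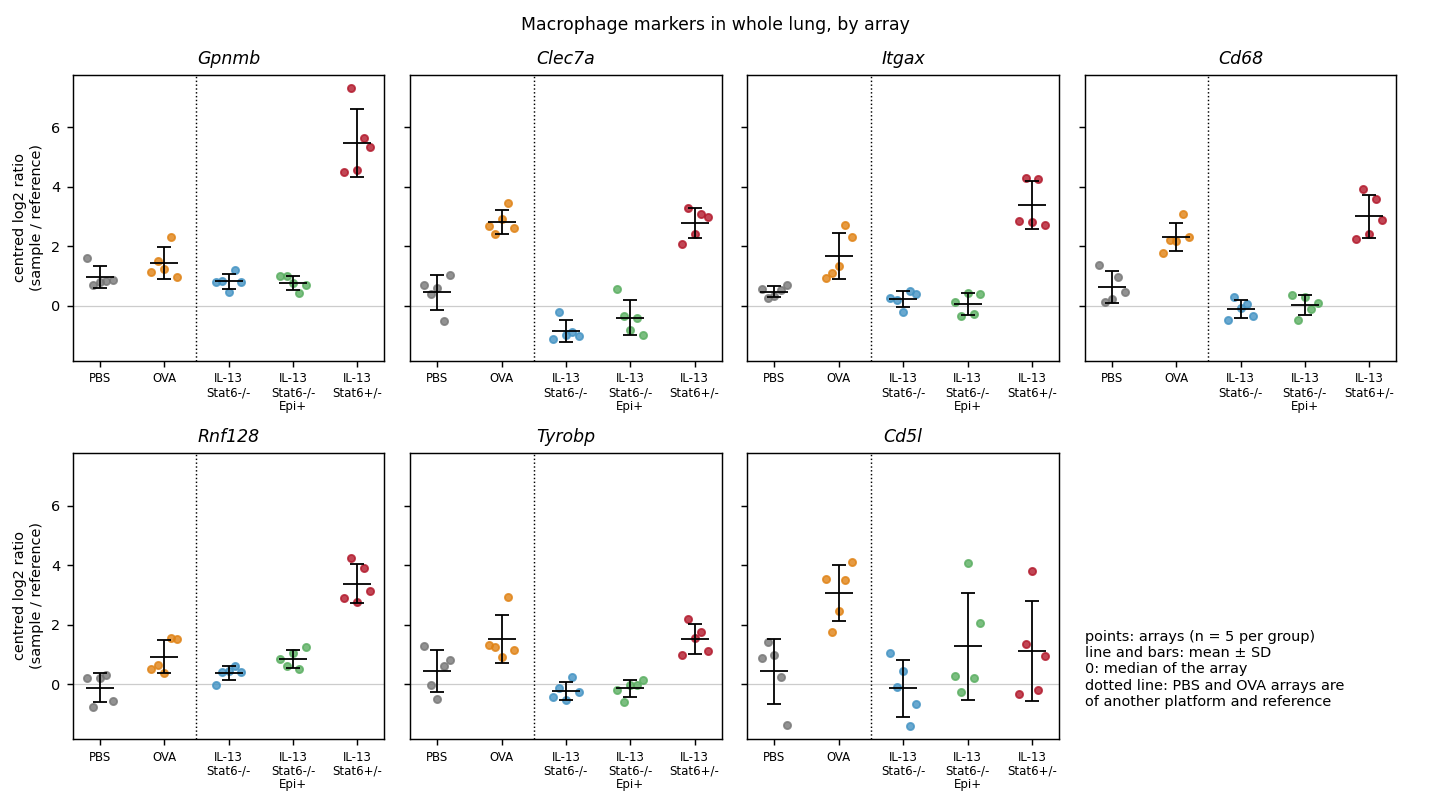
Centred log2 ratios of the 7 genes in whole lung (vertical axis) by group (horizontal axis), with 1 point per array, and the mean and SD as line and bars. The dotted line divides PBS and OVA arrays from IL-13 arrays, which are of another platform and reference. For every gene but Cd5l the red Stat6+/- points lie above all blue Stat6-/- and green Epi+ points.

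Among the receptors and their adaptor, Clec7a read 2.10, 3.29, 2.41, 3.08 and 2.99 on the Stat6+/- arrays (replicates 1, 3, 4, 5 and 6). On the Stat6-/- arrays (replicates 1, 2, 4, 5 and 6) it read -1.11, -0.19, -0.99, -0.89 and -1.0. The lowest Stat6+/- array thus stood well above the highest Stat6-/- array, replicate 2, and the difference was 3.61 ± 0.30 (12.2-fold). Itgax read 2.84, 4.30, 2.81, 4.26 and 2.72 in Stat6+/- lung and 0.25, 0.21, -0.19, 0.49 and 0.40 in Stat6-/- lung. Its Stat6+/- arrays split into replicates 3 and 5 above 4 and the other 3 below 3, all of them above the Stat6-/- arrays, with a difference of 3.16 ± 0.27. Tyrobp read 0.97, 2.19, 1.57, 1.76 and 1.12 against -0.42, -0.13, -0.51, 0.24 and -0.26. Here too the groups did not overlap, but the gap between them was narrower. Without centring the Tyrobp difference was 1.37 and did not pass.

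Among the lysosomal and endosomal proteins, Gpnmb read 4.49, 7.34, 4.57, 5.63 and 5.33 on the Stat6+/- arrays. It read 0.81, 0.84, 0.46, 1.19 and 0.81 on the Stat6-/- arrays. The Stat6-/- arrays lay close together (SD 0.26) and the Stat6+/- arrays spread over nearly 3 log2 units (SD 1.15), with replicate 3 the highest. Only 15 of the 16096 probes had a larger difference. Cd68 read 2.23, 3.91, 2.43, 3.61 and 2.89 in Stat6+/- lung and -0.48, 0.31, -0.08, 0.06 and -0.32 in Stat6-/- lung. That is a difference of 3.12 ± 0.32 without overlap, 8.67-fold. Rnf128 read 2.88, 4.23, 2.75, 3.89 and 3.13 against -0.02, 0.43, 0.44, 0.62 and 0.42. Its difference of 3.00 ± 0.26 was close to those of Cd68 and Itgax.

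Cd5l differed by 1.25 ± 0.93 and did not pass. It read -0.32, 1.35, 3.82, -0.20 and 0.96 in Stat6+/- lung and 1.06, -0.09, 0.46, -1.40 and -0.66 in Stat6-/- lung, so the groups overlapped. The SD within the Stat6+/- group, 1.67, was the widest of the 7 genes there. The larger platform holds 2 spots for Cd5l, whose mean was used. Over the 8 whole lung IL-13 arrays with a value for both, the spots correlated at r = -0.09, and 1 of them had a value on 2 of the 5 Stat6+/- arrays.

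For the 6 genes the same 2 arrays of the Stat6+/- group were at the top, replicate 3 the highest and replicate 5 the next. The lowest array was replicate 1 for 4 of them, replicate 6 for Itgax and replicate 4 for Rnf128. Over the 15 whole lung IL-13 arrays, the probes whose values followed the mean of the 7 genes most closely were those of the chemokine Ccl6 (r = 0.983), the lysosomal protease Ctsz (r = 0.976), the actin-capping protein Capg (r = 0.974), the protease Ctsk (r = 0.970) and the glutaredoxin Glrx (r = 0.967). These are the top 5 of 8658 probes, the arrays form separate groups, and the correlations describe that grouping.

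Ctsk, a lysosomal cysteine protease, read 4.48 ± 1.15 (SD, n = 5) in Stat6+/- lung and -0.34 ± 0.36 in Stat6-/- lung. It led a list of 40 tested lysosome genes, of which 18 rose and none fell in Stat6+/- lung. Acp5, an acid phosphatase, rose by 2.87 ± 0.26, and the proteases Ctsl, Ctss and Ctsd by 2.61 ± 0.35, 2.55 ± 0.29 and 2.49 ± 0.31. The median over the list was 0.84. Of 24 tested genes of ITAM and C-type lectin signalling 9 rose, also with a median of 0.84. They included the Fc receptor gene Fcgr3 (2.30 ± 0.30), the adaptor Blnk (2.14 ± 0.38), the lectin Clec4a2 (1.93 ± 0.23), Fcer1g, which like Tyrobp is an ITAM adaptor (1.59 ± 0.24), and the kinase Syk itself (1.50 ± 0.33). Itgb2, the beta chain that pairs with Itgax, rose by 2.23 ± 0.33 and Itgam, another of its partners, by 1.82 ± 0.35. The other 4 tested genes of that list of integrin partners did not pass, and its median was -0.17.

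Of 29 other macrophage genes 14 rose and 1 fell, with a median of 1.35. Itgam is also in the integrin list, Cd63 in the lysosome list and Trem2 in the ITAM list. The counts of these lists thus share genes. The sialic acid receptor Siglec1 and the scavenger receptor Marco rose by 2.34 ± 0.41 and 2.28 ± 0.49, Ms4a7 by 2.23 ± 0.41, the fatty acid binding protein Fabp5 by 2.03 ± 0.20 and the mannose receptor Mrc1 by 1.86 ± 0.32. The gene that fell was Siglecf, a surface protein of alveolar macrophages and eosinophils, by 1.09 on the log2 scale (SE 0.27). Its 4 Stat6+/- arrays with a value lay between -2.31 and -0.84, and the Stat6-/- arrays between -1.18 and 1.29. The list's mean ratio per array lay between 0.77 and 1.67 in Stat6+/- lung and between -0.12 and 0.21 in Stat6-/- lung.

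Genes of the lists for other cells moved as well, and which cells their RNA came from was not tested. Of 8 general leukocyte genes 5 rose (Cd53, Cd52, Laptm5, Lcp1 and Rac2), with list means per array of 0.31 to 1.53 against -0.81 to -0.13. Of 10 neutrophil genes Ltf and Cxcr2 rose, by 2.89 ± 0.39 and 1.61 ± 0.33, with list means of 0.08 to 1.84 against -0.34 to 1.07. Of 7 genes of the eosinophil list the ribonuclease Rnase2a rose by 5.04 ± 0.73 and Siglecf fell, as given above. The list means were 0.24 to 2.33 against -0.77 to 0.78. Of 8 dendritic cell genes Clec10a rose, by 2.30 ± 0.24, with list means of -0.10 to 0.54 against -0.42 to -0.21, and none of the T cell (6), NK cell (7) and B cell (5) genes passed. Of 7 endothelial genes Eng, Tek and Kdr fell, by 1.55, 1.35 and 1.23, with list means of -1.20 to -0.49 against -0.37 to 0.07. Of 6 alveolar epithelial genes the surfactant proteins Sftpd and Sftpa1 rose, by 1.63 ± 0.25 and 0.90 ± 0.21, with list means of 0.14 to 0.98 against -0.09 to 0.88. Of 6 fibroblast genes the collagen Col3a1 rose by 0.89 ± 0.22 and Lum fell by 1.83, with list means of -1.97 to -0.37 against -1.27 to -0.23. None of 9 airway epithelial genes passed, and their list means were 0.57 to 1.07 against -0.02 to 0.62. A list mean of 0 is the level of the median spot of an array, not absence. The part of any of these lists in the differences of the 7 genes was not tested.

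**Figure D2:**
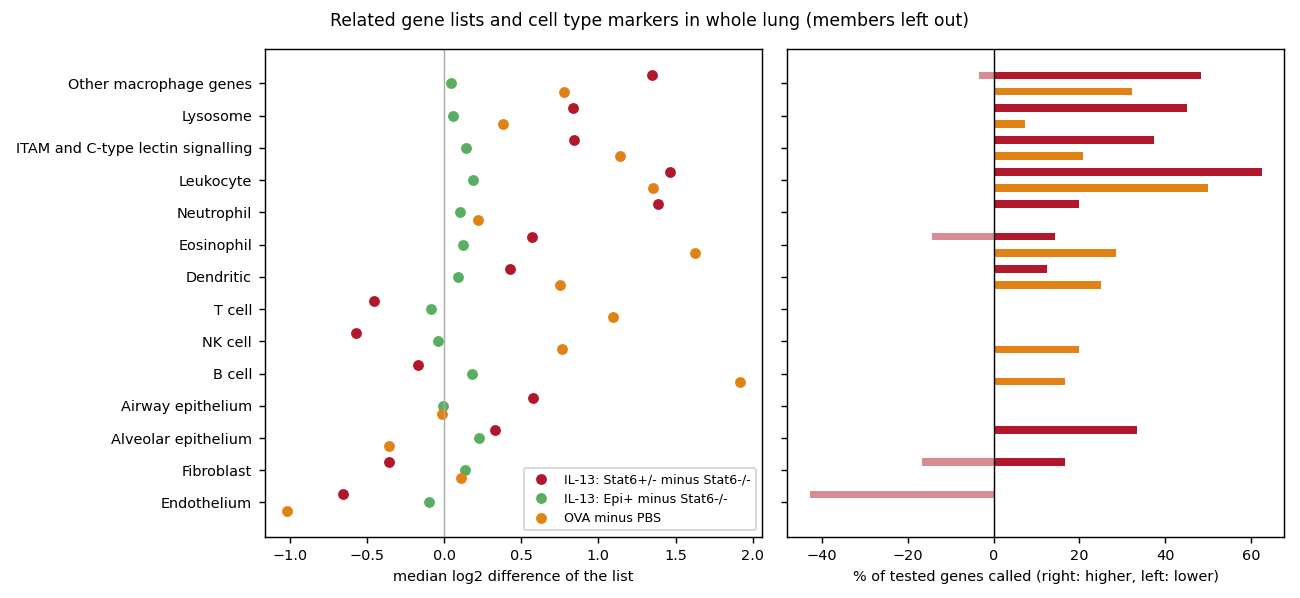
Median log2 difference (left) and percent of tested genes that passed, higher to the right and lower to the left (right), for 14 lists in 3 whole lung comparisons, without the 7 genes. For Stat6+/- minus Stat6-/- (red) the macrophage list has a median of 1.35 and the endothelial list a median of -0.65. Epi+ minus Stat6-/- (green) has no passing gene in any of them.

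In the Epi+ group most of the 7 genes stayed near the Stat6-/- values, while Rnf128 and Cd5l had higher means. None passed between Epi+ and Stat6-/- arrays, where 0.0746% of all probes did, and the groups overlapped for all 7 genes, while 0.69% of all probes were higher and 0.435% lower in Epi+ arrays without overlap. Gpnmb read 1.00, 1.00, 0.76, 0.42 and 0.71 on the Epi+ arrays (replicates 1, 2, 3, 4 and 6), a difference of 0.03 ± 0.43. Itgax differed by -0.03 ± 0.27, Tyrobp by 0.13 ± 0.24, Cd68 by 0.18 ± 0.32 and Clec7a by 0.37 ± 0.30. Rnf128 read 0.83, 0.62, 1.03, 0.51 and 1.26, and 4 of these 5 arrays were at or above the highest Stat6-/- array, 0.62. Its difference of 0.55 ± 0.27 did not pass. Cd5l read 0.28, -0.24, 4.07, 0.22 and 2.07, so that the difference of 1.43 ± 0.94 rested on replicates 3 and 6, which had a value for 1 of the 2 spots each.

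Stat6+/- arrays stood above the Epi+ arrays for the same 6 genes without overlap (3.5% of all probes did so), and these 6 passed, as did 3.42% of all probes (2.4% higher). This comparison and the first share the Stat6+/- arrays. Gpnmb differed by 4.62 ± 0.43, Clec7a by 3.24 ± 0.30 and Itgax by 3.19 ± 0.27. Cd68 differed by 2.94 ± 0.32, Rnf128 by 2.45 ± 0.27 and Tyrobp by 1.61 ± 0.24, and Cd5l by -0.18 ± 0.94, which did not pass. Other genes moved here too: 11 of 29 other macrophage genes rose and 1 fell, 17 of 40 lysosome and 5 of 8 general leukocyte genes rose, and 3 of 7 endothelial genes fell. The order of group means was therefore Stat6+/- first for 6 genes, and the differences between the Epi+ and Stat6-/- means did not pass. For Cd5l the Epi+ mean, 1.28, and the Stat6+/- mean, 1.12, lay within the spread of each group.

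Between OVA and PBS whole lung arrays 2 of the 7 genes rose, Clec7a and Cd68, where 1.75% of all 17047 probes tested passed (1.5% higher). Clec7a read 2.69, 2.40, 2.91, 3.46 and 2.61 on the OVA arrays (replicates 1, 2, 4, 5 and 6) and 0.71, 0.41, 0.61, -0.49 and 1.05 on the PBS arrays (replicates 1 to 5). The groups lay over 1 log2 unit apart and the difference was 2.36 ± 0.32. Cd68 read 1.79, 2.20, 2.19, 3.10 and 2.32 against 1.38, 0.13, 0.23, 0.98 and 0.46. PBS replicate 1 came closest to the OVA arrays, and the difference was 1.68 ± 0.33. The Cd68 call was lost when any of 8 of the 10 arrays was left out (OVA replicates 1, 2, 4 and 6 and PBS replicates 2 to 5), with differences of 1.49 to 1.87 over all 10, and without the OVA arrays low in the Y-linked transcript (1.46). With quantile normalization it was lost at 1.08. Without centring neither gene passed.

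Cd5l had the largest of the OVA differences, 2.63 ± 0.58, but did not pass. It read 3.54, 1.74, 2.46, 3.49 and 4.10 on OVA arrays and 0.89, 1.41, 0.99, 0.25 and -1.36 on PBS arrays, with no overlap. It passed without OVA replicate 2 (2.96), and the same 2.63 passed when the adjustment ran over probes with a value on every array. Itgax read 0.93, 1.09, 1.34, 2.70 and 2.31 against 0.56, 0.27, 0.32, 0.54 and 0.70, and Rnf128 0.52, 0.65, 0.39, 1.55 and 1.50 against 0.22, -0.75, 0.20, 0.31 and -0.55. For both genes the OVA arrays lay just above the PBS arrays, and the differences of 1.20 ± 0.36 and 1.04 ± 0.34 did not pass. Thus 5 of the 7 genes were higher in OVA without overlap, as were 4.47% of all probes.

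Tyrobp and Gpnmb overlapped between OVA and PBS arrays. Tyrobp differed by 1.07 ± 0.45, with OVA replicate 5 at 2.94 and the other OVA arrays between 0.90 and 1.31, and PBS arrays from -0.48 to 1.29. Gpnmb read 1.13, 1.52, 1.26, 2.32 and 0.96 on OVA arrays and 1.60, 0.70, 0.80, 0.84 and 0.86 on PBS arrays. Its difference was 0.48 ± 0.30, although it had the largest difference of the 7 genes between Stat6+/- and Stat6-/- lung. These are 2 sets of arrays on separate platforms, and the difference between them was not tested. OVA replicate 5, an array low in the Y-linked transcript, was the highest OVA array for 6 of the 7 genes, and Clec7a and Cd68 still passed without it.

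In the same OVA comparison 10 of 31 other macrophage genes rose. They included the complement genes C1qb (2.77 ± 0.41) and C1qc (2.51 ± 0.35), the scavenger receptor Msr1 (2.38 ± 0.44), Adgre1, which encodes F4/80 (2.12 ± 0.36), and Ms4a7 (1.96 ± 0.41). Of 24 genes of ITAM and C-type lectin signalling 5 rose, namely Blnk (1.97 ± 0.26), Btk (1.93 ± 0.40), Lcp2 (1.73 ± 0.37), Fcgr1 (1.68 ± 0.31) and Fgr (1.40 ± 0.22). Of 41 lysosome genes Ctss, Lgmn and Ctsc rose, by 1.85 ± 0.28, 1.45 ± 0.20 and 1.27 ± 0.27, and of 7 integrin genes Itgam did, by 1.58 ± 0.22. General leukocyte genes rose too (4 of 8, list means of 0.63 to 1.37 per OVA array against -0.53 to 0.11). Of 7 genes of the eosinophil list Rnase2a and Alox15 rose, with list means of 1.04 to 1.40 against -0.81 to -0.09. Of 8 dendritic cell genes Ccl22 and Clec10a rose, by 2.11 ± 0.27 and 1.96 ± 0.28, with list means of 0.69 to 1.37 against -0.29 to 0.24. The B cell gene Ms4a1 (1 of 6 tested) rose by 2.02 ± 0.36, with list means of -0.47 to 0.81 against -2.14 to -0.47. The NK cell gene Gzma (1 of 5 tested) rose by 1.50 ± 0.27, with list means of -0.45 to 0.63 against -0.42 to 0.41. None of 6 T cell genes passed, with list means of -0.68 to 0.52 against -1.44 to -0.65. The 7 endothelial genes had a median of -1.02 with none passing, and list means of -1.47 to -0.79 against -0.27 to 0.03. The part of these lists in the result was not tested.

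In tracheal perfusate Cd5l, Tyrobp and Cd68 passed in 1 or 2 comparisons each and the other 4 genes in none. Perfusate is the RNA flushed from the trachea, in which the list means of the airway epithelial genes lay between -0.45 and 0.72 and those of the other macrophage genes between -0.35 and 0.20 over all 25 arrays. Over the 5 perfusate groups the group means of Itgax ran from -0.60 to -0.20, those of Rnf128 from -0.45 to -0.27, those of Clec7a from -0.25 to 0.15 and those of Gpnmb from -0.71 to -0.21. For these 4 genes no perfusate comparison passed. The spread within groups reached an SD of 1.20 for Gpnmb in the Stat6+/- group.

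**Figure D3:**
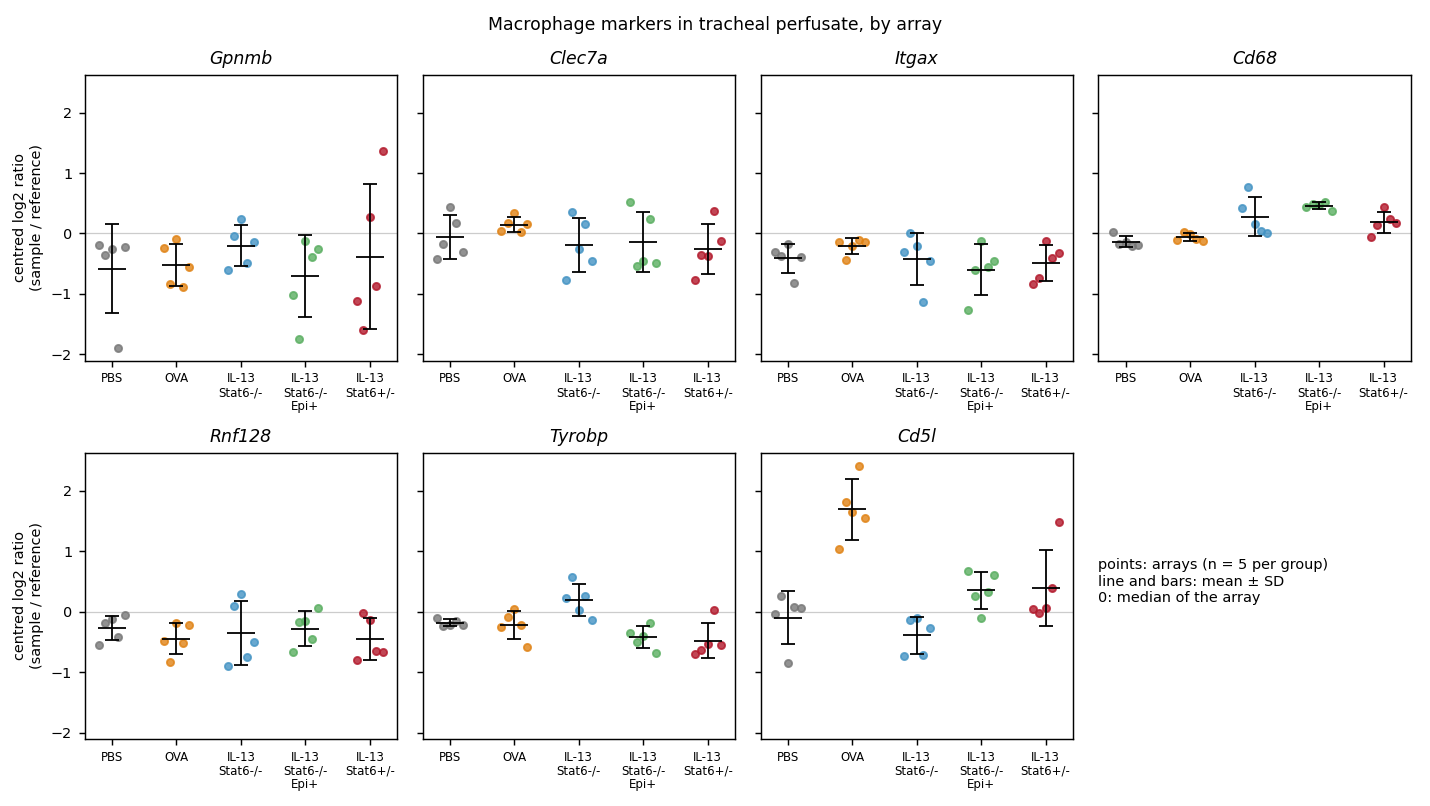
Centred log2 ratios of the 7 genes in tracheal perfusate (vertical axis) by group (horizontal axis), with 1 point per array, and the mean and SD as line and bars. Cd5l stands apart in OVA arrays, at 1.04 to 2.42, and the means of the other genes lie between -0.71 and 0.46.

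Cd5l rose in OVA perfusate by 1.79 ± 0.27 over PBS, the 1 of the 7 genes to pass there, as did 0.237% of the 16873 probes tested (0.172% higher). It read 1.04, 1.81, 1.65, 2.42 and 1.55 on the OVA arrays (replicates 28 to 32) and -0.03, 0.26, -0.85, 0.08 and 0.05 on the PBS arrays (replicates 22 to 26). The groups did not overlap, as for 0.978% of all probes in that direction, and both Cd5l spots had their highest median in the OVA group (1.30 and 1.93). On the first spot alone the groups overlapped, with OVA from 0.68 and PBS up to 0.84. The 2 spots correlated at r = 0.574 over the 25 perfusate arrays. None of 30 other macrophage genes passed between OVA and PBS perfusate. General leukocyte list means lay between -0.15 and 0.77 on OVA arrays and between -0.50 and -0.30 on PBS arrays, with none of the 8 genes passing. The ribonuclease gene Rnase2a rose by 1.88 ± 0.31, the 1 of 7 genes of the eosinophil list to pass. Means of that list were 0.18 to 0.49 against -0.62 to 0.36. Dendritic cell list means did not overlap either, at 0.28 to 0.61 against -0.29 to 0.15, with none of 8 genes passing. The part of these lists in the result was not tested.

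Tyrobp was lower in perfusate of both other IL-13 groups than of the Stat6-/- group. It read -0.71, -0.63, -0.54, 0.04 and -0.54 in Stat6+/- (replicates 4 to 8), -0.35, -0.49, -0.41, -0.18 and -0.68 in Epi+ (replicates 16 to 20) and 0.23, 0.57, 0.03, 0.26 and -0.13 in Stat6-/- perfusate (replicates 10 to 14). Stat6+/- replicate 7 reached into the range of the Stat6-/- arrays, while the Epi+ arrays all lay below that range, as for 0.605% of all probes. The differences from Stat6-/- were -0.67 ± 0.13 for Stat6+/- and -0.62 ± 0.13 for Epi+. Both comparisons share the Stat6-/- arrays. Tyrobp was the 1 gene of the 7 to pass in each, where 3.14% and 0.486% of all probes passed (2.02% and 0.338% lower). Without the 3 Stat6-/- arrays low in the Y-linked transcript the differences were -0.67 and -0.61 and neither passed, and the Epi+ call was lost when any of 9 of the 10 arrays was left out.

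Cd5l, as the mean of its 2 spots, was also higher without overlap in Stat6+/- than in Stat6-/- perfusate, as were 0.96% of all probes. The difference of 0.78 ± 0.27 did not pass. The mean read 0.04, -0.02, 0.05, 0.40 and 1.48 against -0.73, -0.14, -0.10, -0.72 and -0.27, and without replicate 8, the highest, the difference was 0.53. On the first spot alone the groups overlapped, with Stat6+/- from 0.07 and Stat6-/- up to 0.24. The second spot separated them narrowly, at -0.17 against -0.25. Of the other macrophage genes, the fatty acid transporter Cd36 fell in Stat6+/- perfusate by 1.81 on the log2 scale (SE 0.28) and Cd14, a receptor for bacterial lipopolysaccharide, fell in Epi+ perfusate by 1.12 (SE 0.21). In the same perfusate comparisons the surfactant protein Sftpa1 fell by 2.55 in Stat6+/- and by 1.88 in Epi+ arrays, and the lipoxygenase Alox15 of the eosinophil list rose by 1.20 ± 0.18 and 1.06 ± 0.18. Each was the 1 gene of its list to pass. General leukocyte list means lay at -0.23 to 1.56 in Stat6+/-, -0.59 to 0.19 in Epi+ and -0.56 to -0.12 in Stat6-/- perfusate. None of these 8 leukocyte genes passed in either comparison. The part of all these genes in the Tyrobp differences was not tested. None of 41 lysosome and 24 ITAM and C-type lectin genes passed between Stat6+/- and Stat6-/- perfusate.

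Cd68 rose in Epi+ perfusate by 0.60 ± 0.13 over PBS, where 2.83% of all probes passed (1.27% higher). It read 0.45, 0.49, 0.47, 0.52 and 0.37 on Epi+ arrays and 0.02, -0.17, -0.13, -0.21 and -0.19 on PBS arrays, without overlap, as for 1.36% of all probes. Alox15 rose there by 1.00 ± 0.18, and Sftpa1 and the lysosomal protein gene Grn fell by 2.34 and 0.78. The Cd68 call was lost without Epi+ replicate 17, without centring and without the reference block. Between Stat6+/- and Epi+ perfusate, between Stat6-/- and PBS and between Stat6+/- and PBS none of the 7 genes passed, where 0.0237%, 0.599% and 7.13% of all probes did. Across perfusate the probe closest to the mean of the 7 genes was that of Mpeg1, a macrophage pore-forming protein (r = 0.859 over 25 arrays, out of 12062 probes), followed by the integrin gene Itgae (0.808), Ampd3 (0.794), Gpcpd1 (0.788) and Noc2l (0.786).

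The difference between Stat6+/- and Stat6-/- arrays was set against itself in both tissues as an interaction term over the 40 arrays of the larger platform. It was larger in whole lung for 6 of the 7 genes, which passed as did 4.31% of 15370 probes (3.06% higher). The gap between tissues was 4.83 ± 0.57 for Gpnmb, 3.67 ± 0.37 for Clec7a, 3.22 ± 0.32 for Itgax, 3.21 ± 0.32 for Cd68 and 3.10 ± 0.31 for Rnf128. For Tyrobp, which differed in opposite directions in the tissues, it was 2.41 ± 0.25, and for Cd5l 0.47 ± 0.92, which did not pass. For Epi+ against Stat6-/- none of the 7 gaps passed, where 0.0976% of all probes did, and their median was 0.48. The tissues also differ in amplification and reference, and their part in the gaps was not tested.

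**Figure D4:**
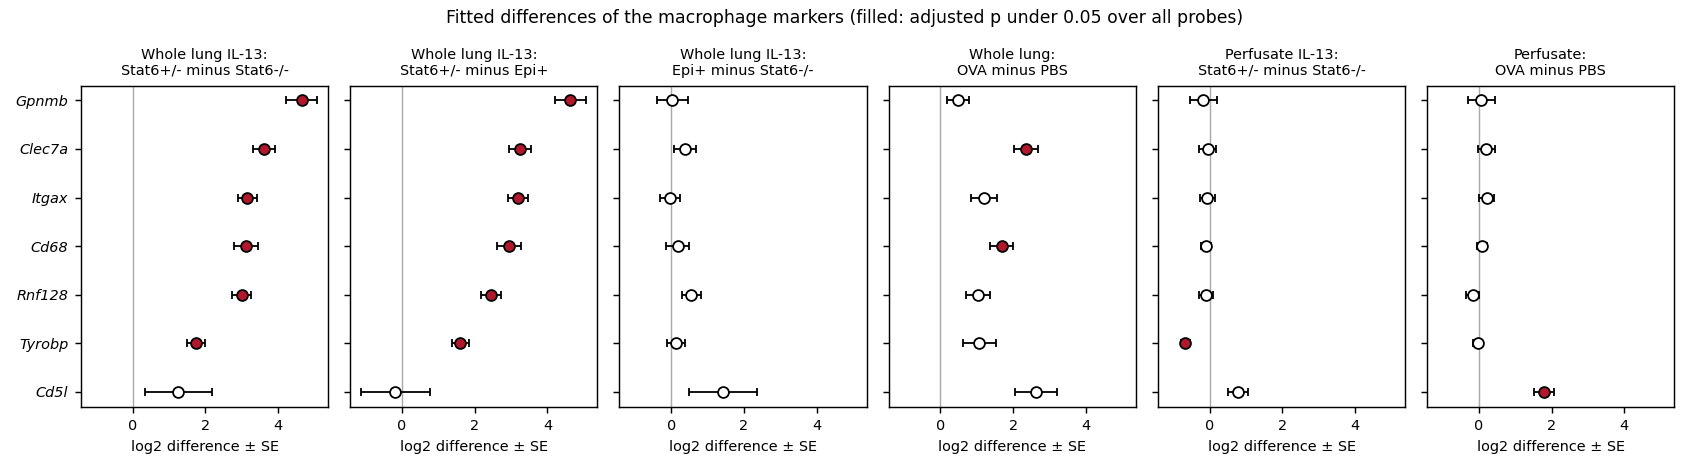
Log2 differences with SE (horizontal axis) for the 7 genes (vertical axis) in 6 comparisons. Filled points passed at an adjusted p under 0.05. Gpnmb has the largest difference between Stat6+/- and Stat6-/- whole lung, 4.65, and the smallest between OVA and PBS whole lung, 0.48.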

How the data were processed

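Spotted arrays with 2 channels of 50 mouse airway samples were used as deposited: log2 ratios, 1 per spot, made by the authors. The steps behind them are not stated in what was used here. Each array was centred on its median (array medians ran from -0.96 to 0.30). Averaging the spots of an accession gave 18272 and 18057 probes on the 2 platforms, and symbols came from the platform annotations, updated through RefSeq. Probes with a value on at least 3 arrays of every group were fitted by least squares with limma 3.58.1 (R 4.3.3) moderation and Benjamini-Hochberg adjustment over all probes. The perfusate fit (25 arrays) had a block for 5 reference preparations, the whole lung IL-13 fit (15 arrays) a block for reference pools 3 and 4, and whole lung OVA and PBS arrays (10) used pool 2 alone. Tissue gaps were interaction terms over 40 arrays. The fits were tested on simulated data. The 7 genes and all gene lists were chosen with earlier results of these data known. Named genes are the 7, up to 5 passing genes with the largest difference per list and comparison, and the 5 probes most correlated with the mean of the 7 genes. Alternatives were no centring, quantile normalization, no reference block, other filters on missing values, single spots, array weights, fewer groups in the fit, Y-linked status, preparation 1.3 left out, the replicate number as a block, and each array left out. Same-numbered whole lung IL-13 arrays had deviations from their group means that correlated at -0.603 to 0.43 over 12 pairs. The median was 0.124, against -0.112 for other pairs. Same-numbered OVA and PBS arrays correlated at -0.184 to 0.011 over 4 pairs. The main fits did not pair arrays by number, and these few pairs cannot exclude a shared batch. The Clec7a window overlaps another annotated gene.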

Additional observations from a re-analysis of the deposited data

Results flagged for a closer look

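In 7 of 70 sets of 5 arrays (7 genes in 10 groups) 1 array stood far from the other 4 by Dixon's test at the 95% level, which chance gives in about 1 set in 20. The highest such arrays were Cd5l in perfusate Stat6+/- replicate 8 (1.48), Tyrobp in perfusate Stat6+/- replicate 7 (0.036), Clec7a in whole lung Stat6-/- replicate 2 (-0.19), Gpnmb in whole lung PBS replicate 1 (1.60) and Tyrobp in whole lung OVA replicate 5 (2.94). The lowest were Cd5l in perfusate PBS replicate 24 (-0.85) and Gpnmb in perfusate PBS replicate 25 (-1.89). That Cd5l value is the mean of 2 spots that disagreed on the array, at -2.19 and 0.48. Clec7a replicate 2 and Tyrobp replicate 5 are arrays low in the Y-linked transcript Eif2s3y, and whether that bears on their values was not tested.

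The difference between Stat6+/- and Stat6-/- arrays was larger in whole lung than in perfusate, by the interaction term of the limma fit, for Gpnmb (4.83), Clec7a (3.67), Itgax (3.22), Cd68 (3.21), Rnf128 (3.10) and Tyrobp (2.41).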

How the results depend on the processing

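The counts of passing genes among the 7 in whole lung Stat6+/- against Stat6-/- and against Epi+ stayed at 6 with each array left out in turn, with medians of 2.90 to 3.34 and 2.74 to 3.14. Without centring Tyrobp did not pass in either (1.37 and 1.43). In whole lung OVA against PBS the count of 2 became 0 without centring, 1 with quantile normalization, 1 without the arrays low in the Y-linked transcript (chosen after seeing the data) and 1 to 2 with an array left out. In perfusate Stat6+/- against Stat6-/- the count of 1 became 0 without centring, with only the groups compared in the fit, and with the Y-linked arrays marked or left out, and 2 with single spots. For Epi+ against Stat6-/- the count of 1 became 0 under these settings other than single spots, with quantile normalization, without the reference block and without preparation 1.3, and was 0 to 1 with an array left out. For OVA against PBS the count of 1 became 0 with only the groups compared, and the median of 0.08 became 0.039 without centring, 0.14 with single spots, 0.13 without preparation 1.3 and 0.0185 to 0.20 with an array left out. For Epi+ against PBS the count of 1 became 0 without centring, without the reference block and with only the groups compared, and 0 to 1 with an array left out. Its median of -0.08 became -0.26 without centring, 0.0210 without preparation 1.3 and -0.13 to 0.025 with an array left out. The median tissue gap for Stat6+/- against Stat6-/-, 3.21, became 2.72 without centring and 2.49 with quantile normalization. Without centring the share of all probes that passed in perfusate fell too. It was 0.759% in place of 3.14% for Stat6+/- against Stat6-/- and 0.101% in place of 0.486% for Epi+ against Stat6-/-. For OVA against PBS it was 0.0889% in place of 0.237%, and for Epi+ against PBS 0.409% in place of 2.83%. The causes were not tested. No difference that passed changed direction. Single spots were run for counts and medians only.

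What equal replicate numbers share between groups is not stated. An array paired with another group was best with its own number in 3 of 24 whole lung IL-13 pairings. For OVA and PBS arrays this held in 0 of 8 pairings. So few pairs cannot exclude a shared batch. With the number as a replicate block, 95 in place of 779 probes passed for Stat6+/- against Stat6-/-, 61 in place of 550 against Epi+, 7 in place of 12 for Epi+ against Stat6-/- and 0 in place of 299 for OVA against PBS. Among the 7 genes 5, 5, 0 and 0 passed, with Tyrobp lost against Stat6-/- (1.63) and against Epi+ (1.54) and Clec7a (2.45) and Cd68 (1.58) lost for OVA. Depth and signal over background are unknown for these ratios, so dim spots could not be set apart.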
